A study of Mus musculus with 6 samples.

Results

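The CD8 coreceptor, the CD3 complex, the kinases Lck and Zap70, the adaptor Lat and the surface protein Thy1 are the parts of the T cell receptor machinery that every mature CD8 T cell uses. The 10 genes that encode them (Cd8a, Cd8b1, Cd3d, Cd3e, Cd3g, Cd247, Lck, Zap70, Lat and Thy1) were taken by symbol from a table of 40879 genes, all 10 were found, and all 10 passed the filter on low counts. They were read in 6 poly-A RNA libraries of CD8 T cells among the tumour-infiltrating lymphocytes of MC38-hPD-L1 tumours, a mouse colon carcinoma line whose name marks human PD-L1, grown for 12 days in C57BL/6N mice. The cells had been through photocatalytic proximity labelling, in which a photocatalyst under light tags nearby cells with biotin, and were then sorted into cells with biotin (Biotin+, 3 libraries, called tumour-neighbouring by the submitters) and cells without it (Biotin-, 3 libraries, called tumour-distal). All 6 libraries share the tumour model, the strain, the day and the sort for CD8, and neither the number of mice nor of cells behind a library is given.

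The T cell receptor binds a peptide on an MHC molecule but has no enzyme of its own. The signal enters through the CD3 chains and through zeta, which Cd247 encodes: Lck, brought to the receptor by the CD8 tails, phosphorylates tyrosine motifs on these chains, Zap70 docks there and phosphorylates Lat, and Lat then gathers the downstream enzymes. Because their expression is largely restricted to T cells and some other lymphocytes, the summed transcripts of these genes also serve as a measure of how much of a sorted sample's RNA comes from T cells. The restriction is not complete: Thy1, for example, is also carried by fibroblasts and some endothelial cells.

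The promoters of the 4 signalling chains are shown as background, and their part in the fold changes was not tested. Cd3g and Cd3d are divergent neighbours whose annotated starts lie 1355 bases apart on chromosome 9, with the start of Cd3e 27825 bases from that of Cd3d. Each stretch runs 5′ to 3′ over 300 bases, from 250 before to 50 after the annotated start (RefSeq, GRCm38.p6, not the build the counts were made on). Capitals mark CAGGAAGT, an ETS family motif, and the E-boxes CAGCTG and CACCTG, searched on both strands. The windows are chr9:44980382-44980681 (minus strand) for Cd3g, chr9:44981536-44981835 (plus strand) for Cd3d, chr9:45009562-45009861 (minus strand) for Cd3e and chr1:165788431-165788730 (plus strand) for Cd247.
Cd3g: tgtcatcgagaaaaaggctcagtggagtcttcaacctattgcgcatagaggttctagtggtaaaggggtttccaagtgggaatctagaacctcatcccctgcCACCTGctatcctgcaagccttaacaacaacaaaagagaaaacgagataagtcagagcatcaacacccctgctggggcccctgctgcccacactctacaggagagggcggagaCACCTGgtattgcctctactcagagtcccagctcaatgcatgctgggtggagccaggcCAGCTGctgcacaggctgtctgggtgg
Cd3d: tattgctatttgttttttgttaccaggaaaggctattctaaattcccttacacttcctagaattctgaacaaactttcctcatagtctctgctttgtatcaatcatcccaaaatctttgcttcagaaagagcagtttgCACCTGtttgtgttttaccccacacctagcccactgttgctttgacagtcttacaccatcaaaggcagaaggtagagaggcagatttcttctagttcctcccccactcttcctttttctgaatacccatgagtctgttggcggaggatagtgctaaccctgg
Cd3e: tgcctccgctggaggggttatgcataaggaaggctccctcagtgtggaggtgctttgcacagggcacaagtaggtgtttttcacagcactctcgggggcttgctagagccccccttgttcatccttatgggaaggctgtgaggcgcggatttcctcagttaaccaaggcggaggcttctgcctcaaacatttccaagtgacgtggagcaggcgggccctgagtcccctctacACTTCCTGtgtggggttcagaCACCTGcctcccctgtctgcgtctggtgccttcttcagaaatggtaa
Cd247: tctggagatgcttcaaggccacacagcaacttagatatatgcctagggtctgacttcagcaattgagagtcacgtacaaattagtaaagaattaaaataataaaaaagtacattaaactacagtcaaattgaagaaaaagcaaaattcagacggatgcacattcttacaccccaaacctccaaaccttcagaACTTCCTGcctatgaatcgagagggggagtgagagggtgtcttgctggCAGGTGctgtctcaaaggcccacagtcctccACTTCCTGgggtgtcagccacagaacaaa

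The 4 windows differed in what they hold. Cd3g had 3 E-boxes and no CAGGAAGT, and Cd3d had 1 E-box 112 bases before the start. Cd3e had CAGGAAGT 18 bases before the start and an E-box just after it. Cd247 had CAGGAAGT on either side of the start and an E-box 10 bases before it. The RefSeq table held 11 promoters for 8 of the 10 genes. CAGGAAGT was found in 4 of these 11 (36.4%), in Cd247, Cd3e and both promoters of Lck, against 3.3% of the 32851 promoters of this length in the table. An E-box of either kind was in 9 of the 11 (81.8%), against 32.9% of all. The RUNX motif TGTGGT was in 3 of the 11 (27.3%) against 16.8%, and TATAAA was in 0 of the 11 against 13.6%. These are matches of letters, chosen with the sequences in view, and no factor binding was measured.

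Library totals were 16440614 to 19640693 counts in Biotin+ and 16423106 to 19035864 in Biotin-, and the smallest count behind any value of the 10 genes was 2559, so that counting error was small beside the spread between libraries. Levels are CPM scaled by TMM, a factor per library that evens out composition. The sort was checked on textbook markers. Cd4 averaged 1.22 ± 0.386 CPM in the Biotin+ libraries, against 3.67 ± 1.62 CPM in the Biotin- ones (SD, n = 3 each), and Trdc, of gamma delta T cells, 1.27 ± 1.31 CPM in Biotin+, against 1.76 ± 1.18 CPM in Biotin-, both far below either CD8 chain. Zbtb7b, the most abundant gene of the CD4 T cell list, stood higher, at 33.7 ± 7.28 CPM in Biotin+, against 37.0 ± 11.3 CPM in Biotin-. Others of the NK or gamma delta T list, named after their values were seen, had higher means in Biotin+: Trgc2 had 18.6 ± 11.1 CPM, against 6.55 ± 4.05 CPM in Biotin-, Klrb1c 18.3 ± 8.1 CPM, against 6.96 ± 5.46 CPM in Biotin-, and Fcer1g 78.4 ± 29.1 CPM, against 54.1 ± 39.4 CPM in Biotin-. Tyrobp of that list, like Trdc, had a lower mean in Biotin+, at 34.9 ± 15.0 CPM, against 40.0 ± 23.2 CPM in Biotin-. Trgc1 was nearly level, at 1.49 ± 0.716 CPM in Biotin+, against 1.45 ± 0.818 CPM in Biotin-. Of the lists of other cell types, the 15 fibroblast and endothelial markers took 0.0249% to 0.0491% of the counts in Biotin+ and 0.16% to 0.304% in Biotin-, without overlap, led by the matrix genes Fn1 and Sparc. Of these 15 genes 12 could be tested, and 8 were lower in Biotin+ and 0 higher (edgeR, adjusted p under 0.05), where 6.72% of all genes were lower. The endothelial genes Pecam1 and Kdr were not among the 8 (edgeR, adjusted p = 0.172 and 0.374). With the replicate number as a block, Pecam1 was lower (edgeR, adjusted p = 0.0287). The endothelial genes Cdh5, Vwf and Cldn5 could not be tested. The part of this list in the results below was not tested. The 12 macrophage markers, led by Lyz2 and Apoe, took 0.0365% to 0.109% in Biotin+ and 0.0892% to 0.361% in Biotin-, with 0 of 12 called in edgeR and 4 lower with the replicate number as a block, which called 12% of all genes lower. Summed shares overlapped between the groups, too, for lists of epithelial or tumour (8 genes), dendritic (9), neutrophil (7), NK or gamma delta T (7), B cell (6) and CD4 T cell markers (4), and Krt20 and Krt7 of the epithelial list had no count in any library. Of these 6 lists the test covered 2 of the 8 epithelial, 7 of the 9 dendritic, 4 of the 7 neutrophil, 6 of the 7 NK or gamma delta T, 2 of the 6 B cell and all 4 CD4 T cell genes. In edgeR 0 of those tested were called. With the block Trgc2, Klrb1c, Fcer1g and the epithelial gene Cdh1 were higher, where 5.6% of all genes were, and Cd4 was lower. The part of these cells in the results was not tested.

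All 10 genes were higher in each Biotin+ library than in any Biotin- library, which held for 13.4% of the 13360 genes tested and for 27.1% of the 1928 with a mean of at least 100 CPM. The quasi-likelihood test of edgeR called 5 of the 10 at an adjusted p under 0.05, namely Cd3g, Thy1, Zap70, Cd3e and Cd8a. Of all genes tested it called 8.26% in either direction and 1.53% as higher, and of those with at least 100 CPM it called 4.05% as higher. DESeq2 called 8 of the 10 (2.41% of its genes higher) and limma-voom 6 (1.61% higher). With the replicate number as a block in edgeR, which pairs same-numbered libraries (called the block here), 10 of the 10 passed, where 5.6% of all genes passed as higher. The log2 fold changes ran from 0.53 to 1.23 with a median of 0.87, beside a median of 0.06 over all genes, of which 55.3% were above 0. The signs hold with TMM scaling, and 2 of the 10 turned with a scaling to receptor constant regions given below. Whether the sorted cells held more of these transcripts per cell, or the Biotin- samples held fewer T cells, cannot be told apart in bulk RNA.

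**Figure D1:**
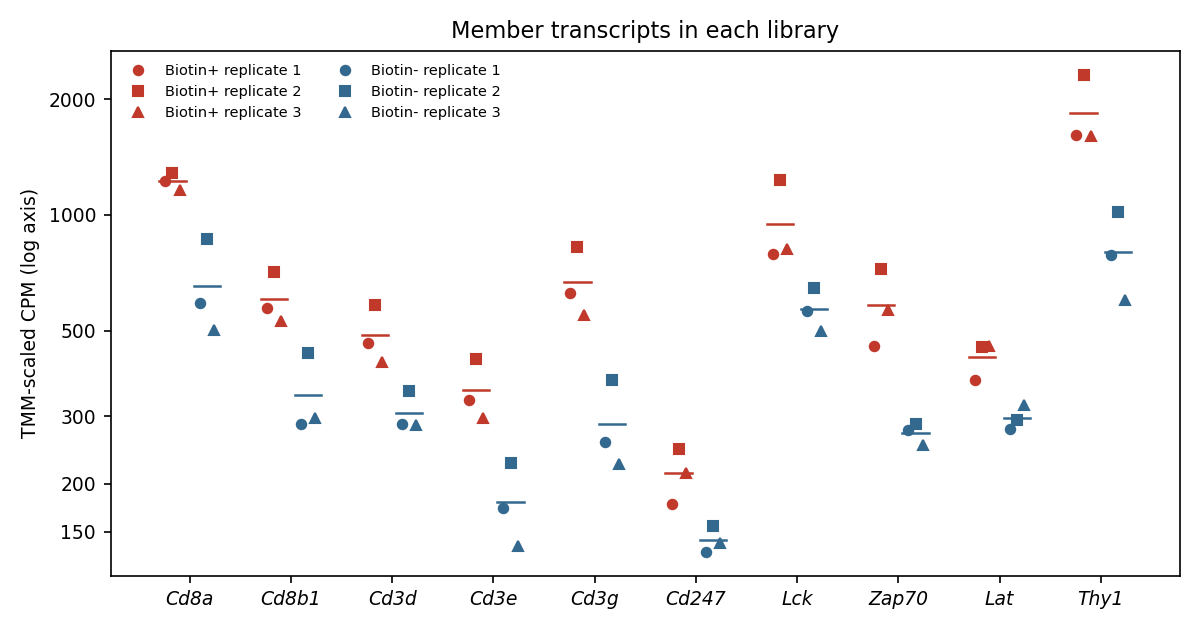
Levels of the 10 genes in TMM-scaled CPM on a log axis, 1 point per library, Biotin+ (red) left of Biotin- (blue), with the shape giving the replicate number and the bar the mean of 3. For every gene the 3 Biotin+ points lie above the 3 Biotin- points with this scaling, from Thy1 at the top to Cd247 at the bottom.

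Cd8a encodes the alpha chain of the coreceptor, which binds MHC class I and carries Lck on its tail. It stood at 1224, 1288 and 1161 CPM in Biotin+ replicates 1 to 3, against 591, 864 and 501 CPM in Biotin-. With TMM scaling the coefficient of variation was 5.19% over the Biotin+ libraries and 29% over the Biotin- libraries, with replicate 2 highest in both groups. The log2 fold change was 0.91 ± 0.24 (SE; edgeR, adjusted p = 0.0467, or 0.00141 with the block). The call was lost under upper quartile scaling (edgeR, adjusted p = 0.0528), under library size alone (edgeR, adjusted p = 0.0609) and without each library other than Biotin- replicate 2 (edgeR, adjusted p = 0.0694 to 0.216). Cd8b1 encodes the beta chain, which pairs with alpha in the form that serves conventional CD8 T cells. It stood at 574, 710 and 531 CPM in Biotin+, against 286, 437 and 297 CPM in Biotin-, and did not pass (log2 difference 0.83, SE 0.24, edgeR adjusted p = 0.0563, or 0.00212 with the block). The ratio of Cd8a to Cd8b1 counts was 2.04 ± 0.201 in Biotin+, against 1.91 ± 0.199 in Biotin- (SD, n = 3 each), a difference smaller than the spread between libraries (exact permutation test, two-sided, p = 0.5).

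Cd3g, Cd3d and Cd3e encode the gamma, delta and epsilon chains, which form the gamma-epsilon and delta-epsilon pairs beside the receptor. Cd3g stood at 628, 824 and 551 CPM in Biotin+, against 257, 373 and 226 CPM in Biotin-. Its log2 difference of 1.23 ± 0.26 (SE; edgeR, adjusted p = 0.0180) was the highest of the 10. Cd3e, whose chain belongs to both pairs, stood at 331, 422 and 297 CPM in Biotin+, against 173, 226 and 138 CPM in Biotin- (log2 difference 0.97, SE 0.24, edgeR adjusted p = 0.0324). Cd3d stood at 465, 585 and 415 CPM in Biotin+, against 286, 348 and 285 CPM in Biotin-, with a smaller log2 difference of 0.67 ± 0.21 that did not pass (SE; edgeR, adjusted p = 0.0822, or 0.0110 with the block). In all 3 genes replicate 2 was the highest library of its group and the lowest Biotin+ library lay above the highest Biotin- library.

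Cd247 encodes zeta, whose dimer holds most of the tyrosine motifs of the complex. It stood at 178, 247 and 213 CPM in Biotin+, against 133, 155 and 141 CPM in Biotin-, and did not pass (log2 difference 0.57, SE 0.20, edgeR adjusted p = 0.107, or 0.0360 with the block). Its reads are the least certain of the 10: in GENCODE M21, 82.1% of the windows of 75 bases in its longest coding transcript also occur in transcripts of Pou2f1, on the opposite strand, or of the gene model Gm16565. The strand setting of the counting is not given in the sources used here, so part of its signal may be lost or may belong to these genes. The other 9 shared at most 4.47% of their windows (Cd3e, with Gm48719).

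Both kinases were higher in every Biotin+ library. Lck, which starts the cascade, stood at 792, 1234 and 815 CPM in Biotin+, against 561, 647 and 499 CPM in Biotin-. Its log2 difference of 0.73 ± 0.24 did not pass (SE; edgeR, adjusted p = 0.0937, or 0.00802 with the block), and the coefficient of variation over the Biotin+ libraries was 26.3%. Without Biotin+ replicate 2, its highest library, the difference was 0.47 (edgeR, adjusted p = 0.149). Zap70, which Lck activates on the chains, stood at 456, 723 and 567 CPM in Biotin+, against 276, 286 and 252 CPM in Biotin-. Its Biotin- libraries were the tightest of the 10 genes (coefficient of variation 6.52%), and it passed with a log2 difference of 1.10 ± 0.22 (SE; edgeR, adjusted p = 0.0161).

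Lat, the membrane adaptor that Zap70 phosphorylates, had the smallest fold change of the 10. It stood at 372, 453 and 457 CPM in Biotin+, against 277, 292 and 321 CPM in Biotin- (log2 difference 0.53, SE 0.19, edgeR adjusted p = 0.133, or 0.0419 with the block). With TMM scaling it was also the exception in the order of libraries, with replicate 3 and not replicate 2 as its highest library in both groups. Thy1, a lipid-anchored glycoprotein of the T cell surface, was the most abundant of the 10 per length. It stood at 1609, 2315 and 1601 CPM in Biotin+, against 784, 1020 and 602 CPM in Biotin- (log2 difference 1.2, SE 0.27, edgeR adjusted p = 0.0235). Thy1 was higher in the libraries where the summed share of fibroblast and endothelial markers, of cells that also use Thy1, was lower. No endothelial gene of that list was called in edgeR without the block, and the part of those cells was not tested.

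Single libraries decided how many genes passed. All 10 log2 fold changes stayed positive without each library in turn, which the lack of overlap between the groups made nearly certain beforehand. Of the Biotin+ libraries, dropping replicate 1 left 3 calls (1.45% of all genes called higher), replicate 2 left 1, Zap70 (0.42%), and replicate 3 left 4 (1.23%). Of the Biotin- libraries, dropping replicate 2 left 6 calls (0.801%). Dropping Biotin- replicate 1 left 0 in edgeR (0.38%), with 8 of the 10 higher at an unadjusted p under 0.05, as 4.99% of all genes were. Dropping Biotin- replicate 3 left 0 as well (0.168%), with 10 of the 10 higher at an unadjusted p under 0.05, as 4.69% of all genes were.

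Divided by the length of the longest coding transcript, the highest level was that of Thy1, at 1062 ± 236 CPM per kilobase in Biotin+ and 462 ± 121 in Biotin-, and the lowest that of Cd247, at 71.9 ± 11.7 in Biotin+, against 48.4 ± 3.83 in the Biotin- libraries (SD, n = 3 each). The other 8 lay between 239 (Cd3e) and 653 (Cd3g) CPM per kilobase in Biotin+, and between 121 (Zap70) and 279 (Cd3g) in Biotin-. In Biotin+, Lck (433 ± 114), Cd8b1 (408 ± 63) and Cd8a (391 ± 20.3) overlapped from library to library, whereas Lat (346 ± 39), next in the order, lay below Cd8a in every library. With the length of all annotated exons in place of the transcript, Thy1 and Cd247 kept the ends of the order, but Cd3g moved from rank 2 to rank 6 in Biotin+, so the order in between depends on the length used.

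With TMM scaling most of the 10 genes also shared their highest library within a group. In Biotin+, 9 of the 10 were highest in replicate 2, and in Biotin- the same 9 were highest in replicate 2, with Lat as the exception in both. Their summed share of counts, taken without TMM, was also highest in replicate 2 (0.718% in Biotin+, 0.475% in Biotin-). For single genes, such as Cd8a, the order in Biotin+ depends on the TMM factors. How many of all genes share this order was not counted. Centred on each gene's mean over the 6 libraries, the mean log2 CPM of the 10 was 0.30, 0.70 and 0.32 in Biotin+ replicates 1 to 3, against -0.51, -0.18 and -0.62 in Biotin-. Biotin+ replicate 2 also had the highest share of ribosomal protein transcripts, 18.5% of counts where the other 5 ranged over 13.2% to 14.4%, and the lowest TMM factor, 0.815. Replicate 2 had the lowest fibroblast and endothelial share of its group both in Biotin+ (0.0249%) and in Biotin- (0.16%). The part of these differences in the levels of the 10 genes was not tested. Between same-numbered libraries, TMM-scaled levels were higher in Biotin+ for every gene and every number, by 0.42 to 1.41 on the log2 scale in the 30 comparisons. The direction in these follows from the lack of overlap between the groups.

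**Figure D2:**
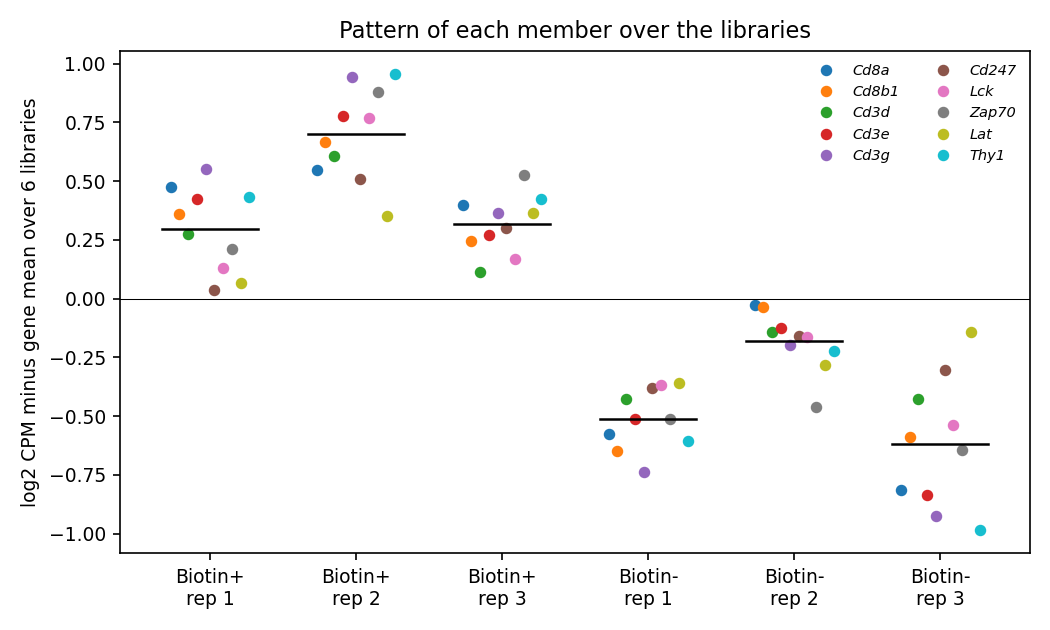
Log2 CPM of each of the 10 genes minus that gene's mean over the 6 libraries, 1 coloured point per gene, with the black bar at the mean of the 10, Biotin+ libraries on the left. With TMM scaling the bar is highest in replicate 2 within both groups (0.70 and -0.18), and Lat (olive) breaks the order.

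Genes outside the list with the most similar pattern were looked for among those with a mean of at least 10 CPM, by the root mean square difference, over the 6 libraries, between the gene's centred log2 CPM and the mean of the 10. The closest were Plaat3 (0.0621), Rinl (0.0689), Afmid (0.0817), Cgas (0.0861) and Mrps36 (0.0865). Plaat3, the nearest, stood at 122, 168 and 125 CPM in Biotin+, against 70.8, 82.8 and 70.4 CPM in Biotin-. The 10 genes themselves differed from the mean of their other 9 by 0.102 (Cd8b1) to 0.3 (Lat), so Cd8b1 followed the group most closely and Lat least.

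Few differences in the proportions of the 10 genes passed a test. When each library was scaled to the summed counts of the other 9 genes, so that a gene is asked only whether it moved more or less than its companions, 0 of 10 passed in edgeR, and 0 had an unadjusted p under 0.05. The share of all genes that passed in these fits is not given here. Adjustment raised the edgeR p of Thy1 only from 0.0588 to 0.0980, so small p values were common among all genes. The estimates ran from -0.46 ± 0.24 (SE) for Lat to 0.35 ± 0.16 (SE) for Thy1, with edgeR adjusted p values of 0.109 and 0.0980, and Cd8a (0.01 ± 0.18 SE) sat at the centre. With the block Lat passed as lower than the other 9 (log2 fold change -0.45, edgeR adjusted p = 0.0286), and it also passed without Biotin- replicate 2 (-0.62, edgeR adjusted p = 0.0456), whereas without Biotin- replicate 3 the value was -0.26 (edgeR adjusted p = 0.394). Where Lat passed, its unadjusted p was 0.0200 with the block and 0.0240 without Biotin- replicate 2 (edgeR). Adjustment raised these so little because most genes tested passed in those fits, so a pass does not set Lat apart from genes at large. Thy1 made up 24.9 ± 1.19% of the counts of the 10 genes in Biotin+ and 20.7 ± 1.94% in Biotin-, and Lat 5.89 ± 0.918% in Biotin+, against 7.93 ± 1.8% in the Biotin- libraries (SD, n = 3 each). A miss here does not show that the proportions were equal, since the standard errors ran from 0.16 to 0.24.

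**Figure D3:**
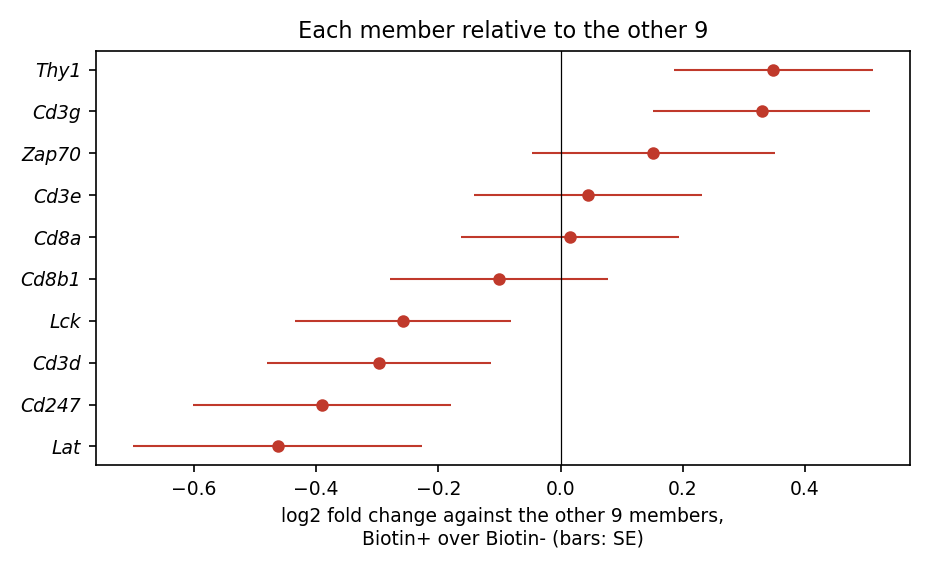
Log2 fold change of each gene in Biotin+ over Biotin- when libraries are scaled to the summed counts of the other 9, with bars for 1 SE. Thy1 and Cd3g lie at the top (0.35 and 0.33) and Lat and Cd247 at the bottom (-0.46 and -0.39), and none had an adjusted p under 0.05.

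Ratios of raw counts within a library need no scaling. Of the 45 ratios between the 10 genes, 17 did not overlap between the groups (37.8%), and Cd3g and Thy1 took part in 6 each. With 3 libraries a group the exact permutation test cannot go below 0.1, which all 17 reached, and after adjustment over the 45 the smallest value was 0.265. Within the CD3 complex the ratio of Cd3d to Cd3g was 0.740, 0.709 and 0.753 in Biotin+ replicates 1 to 3, against 1.11, 0.933 and 1.26 in Biotin-. Cd3g counts thus exceeded Cd3d counts in all 3 Biotin+ libraries, and in 1 of the 3 Biotin- libraries. Among the signalling proteins the ratio of Zap70 to Lat was 1.23, 1.60 and 1.24 in Biotin+, against 0.995, 0.979 and 0.783 in Biotin-, and that of Lck to Zap70 was 1.74, 1.71 and 1.44 in Biotin+, against 2.03, 2.26 and 1.98 in Biotin-. Zap70 was thus higher relative to both Lck and Lat in each Biotin+ library than in any Biotin- library. The ratios printed are a choice from the 45, and of the 9 ratios with Zap70 only 4 did not overlap between the groups. Against the other 9 genes Zap70 had a log2 fold change of 0.15 ± 0.20 and did not pass (SE; edgeR, adjusted p = 0.508).

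As a share of all counts the 10 genes took 0.650%, 0.718% and 0.664% in Biotin+ replicates 1 to 3, against 0.392%, 0.475% and 0.368% in Biotin-, a ratio of means of 1.65. Leaving out the CD8 chains, whose protein the sort used, gave a ratio of 1.66, and leaving out Thy1 gave 1.56. The 3 constant regions of the alpha and beta receptor chains (Trac, Trbc1 and Trbc2), which every CD8 T cell of the usual kind must also transcribe, took 0.117%, 0.149% and 0.124% in Biotin+, against 0.0905%, 0.12% and 0.0919% in Biotin-, a ratio of means of 1.29 with overlapping groups. The summed counts of the 10 genes were 5.57, 4.83 and 5.37 times those of the constant regions in Biotin+, against 4.33, 3.95 and 4.00 times in Biotin-. All 3 Biotin+ ratios lay above all 3 Biotin- ratios. The fibroblast and endothelial share differed between the same libraries by a factor of 0.18 (Biotin+ over Biotin-), and its part was not tested.

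**Figure D4:**
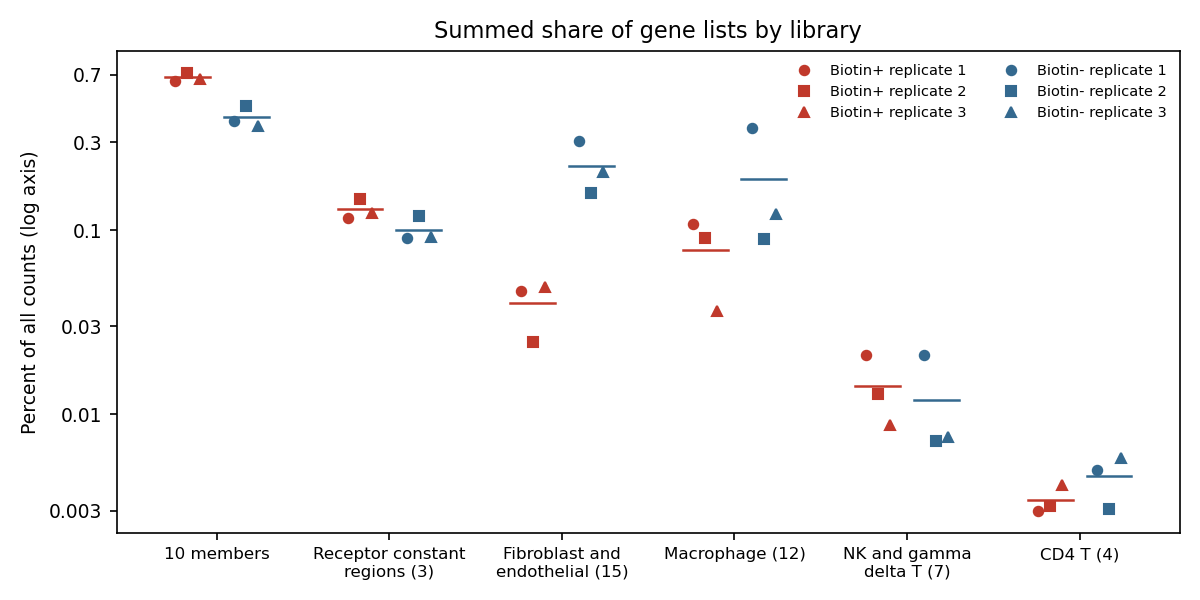
Summed share of all counts (percent, log axis) of the 10 genes, the receptor constant regions and 4 lists of markers of other cells, 1 point per library, Biotin+ (red) left of Biotin- (blue), bars for the mean of 3. The 10 genes (0.650% to 0.718% in Biotin+, 0.368% to 0.475% in Biotin-) and the fibroblast and endothelial markers separate the groups in opposite directions, and the other lists overlap.

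The choice of yardstick therefore bears on the calls. With libraries scaled to the constant regions the median over all genes shifted by -0.563 on the log2 scale. Of the 10 genes 0 passed as higher in edgeR, where 0.127% of all genes did and 8.92% were lower. At an unadjusted p under 0.05 there were 3 of the 10 (edgeR), and the share of all genes at that cut was not computed. Under that scaling 8 of the 10 kept a positive log2 fold change, led by Cd3g (0.66, edgeR adjusted p = 0.0653) and Thy1 (0.63, edgeR adjusted p = 0.0504), whereas Cd247 (-0.016) and Lat (-0.062) changed sign. Trbc1 varied widely between libraries of a group (181, 523 and 328 CPM in Biotin+, against 192, 329 and 217 CPM in Biotin-), and it shares much of its sequence with Trbc2, so this yardstick is itself uneven.

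The median fold change of further genes of the pathway lay below that of the 10. Of 32 genes that act beside the 10 (3 constant regions, 4 kinases, 14 adaptors, 6 enzymes and effectors, 5 surface proteins), 0 passed in edgeR in either direction, while 11 had an unadjusted p under 0.05 (10 higher and 1 lower), as did 8.62% of all genes in the higher and 13.9% in the lower direction. DESeq2 called 3 of the 32, all higher, and limma-voom 0. Their median log2 fold change was 0.40, against 0.87 for the 10 genes and 0.06 for all genes, and 28 of the 32 were positive, with a median of -0.16 under the constant region scaling. With the block 9 passed as higher and 1 as lower, beside 5.6% and 12% of all genes. Trac, Trbc2, Cd2, Lcp2, Skap1, Sh2d2a, Vav1 and Was were among the higher ones and Trat1 was the lower one, those other than Trac, Lcp2 and Cd2 being named after their values were seen.

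Trac, the constant region of the alpha chain, stood at 494, 689 and 457 CPM in Biotin+, against 295, 451 and 270 CPM in Biotin- (log2 difference 0.69, SE 0.26, edgeR adjusted p = 0.141, or 0.00712 with the block). Cd2, an adhesion receptor that strengthens T cell contacts, stood at 395, 416 and 296 CPM in Biotin+, against 254, 277 and 218 CPM in Biotin- (log2 difference 0.56, SE 0.21, edgeR adjusted p = 0.138, or 0.0311 with the block). Lcp2, the adaptor SLP-76 that joins Lat, had a log2 difference of 0.51 ± 0.24 (SE; edgeR, adjusted p = 0.235, or 0.0473 with the block).

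Fyn, Cd28 and Cd5 did not pass with or without the block. Fyn, the second Src kinase of T cells, stood at 331, 196 and 312 CPM in Biotin+, against 261, 227 and 200 CPM in Biotin-, with overlapping groups (log2 difference 0.29, SE 0.24, edgeR adjusted p = 0.516). Cd28, the costimulatory receptor, had 0.23 ± 0.24 (SE; edgeR, adjusted p = 0.631), and Cd5, a surface brake whose level follows receptor signal strength in the thymus, had 0.05 ± 0.23 (SE; edgeR, adjusted p = 0.922). Cd5 stood at 125, 187 and 137 CPM in Biotin+, against 127, 179 and 127 CPM in Biotin-, so that same-numbered libraries differed by less than the libraries of a group did.

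**Figure D5:**
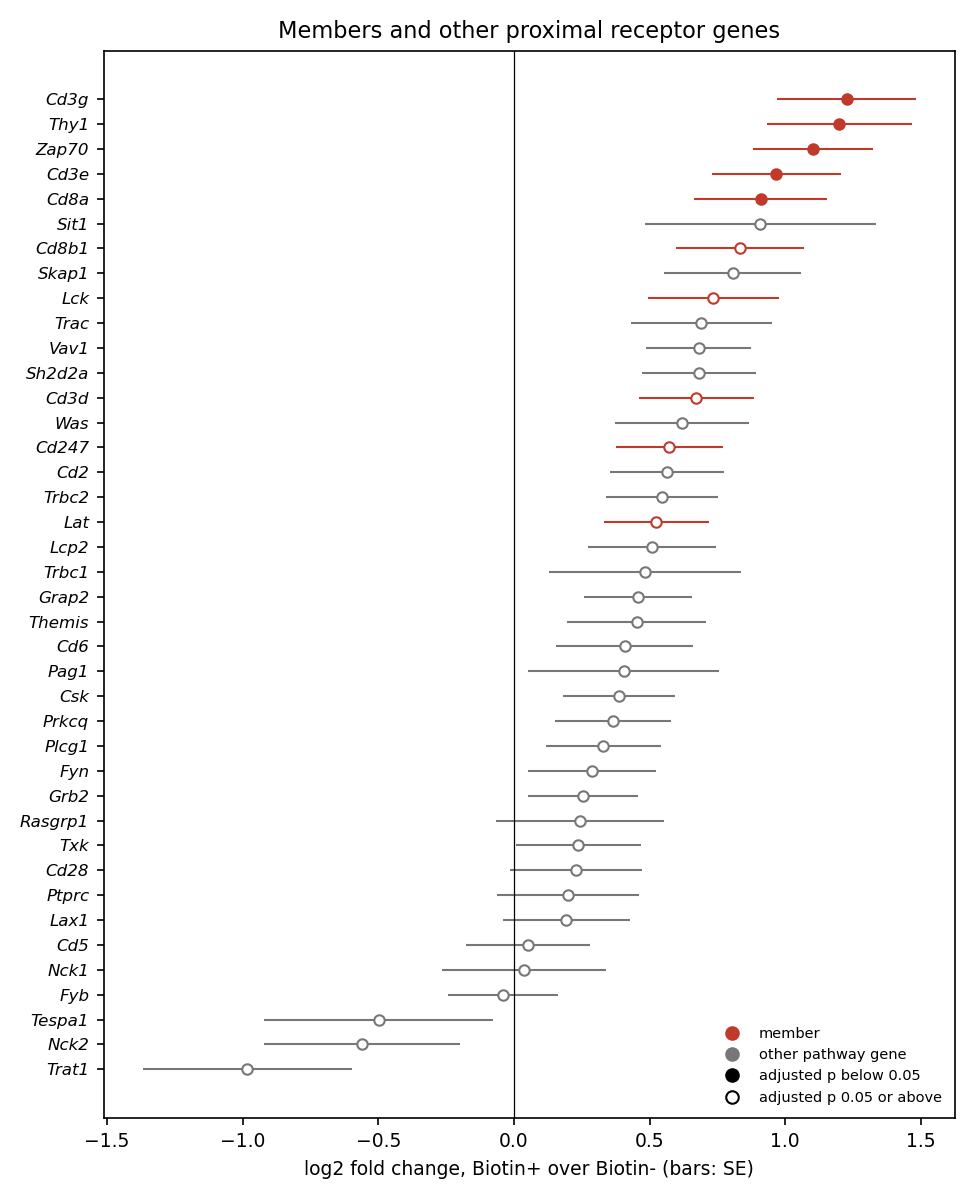
Log2 fold change in Biotin+ over Biotin- (TMM scaling) with bars for 1 SE, for the 10 genes (red) and other genes of the pathway (grey), filled where the edgeR adjusted p was below 0.05. The 5 filled points, Cd3g to Cd8a, are all among the 10 genes, and Trat1 lies lowest at -0.98. With libraries scaled to the receptor constant regions none of the 10 passed and Cd247 and Lat changed sign.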

How the data were processed

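The data are poly-A RNA counts of sorted CD8 T cells, 3 Biotin+ and 3 Biotin- samples, grouped and numbered by their titles. What the authors deposited is a table of raw counts, genes in rows, as the labels also name it. The submitters' processing notes list Trim Galore 0.6.7, STAR 2.7.10a, Picard 1.14, featureCounts 2.0.1 and GRCm39 but not their roles. The sources used here give neither the annotation nor the strand setting, nor whether replicates are separate animals, so that p-values may reflect technical spread alone. Counts carry no molecular identifiers.

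The fit was edgeR 4.0.16 in R 4.3.3 (filterByExpr, TMM, robust quasi-likelihood F test, group as the one term) over 13360 genes, adjusted by Benjamini-Hochberg over all of them. Log2 values are Biotin+ over Biotin-, with SE from the F statistic. Same-numbered libraries deviated together (r = 0.347, 0.247 and 0.377, others -0.267 to -0.0642). The replicate block takes the numbers to pair samples, and the main fit does not use this pairing. These correlations come from the same counts that the block then tests. No libraries of a group were duplicates.

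The 10 genes and all lists were chosen with earlier results of these data known. Named were the 10 genes, Trac, Fyn, Lcp2, Cd28, Cd2 and Cd5, pathway genes that passed and the 5 genes of most similar pattern. The 2 most abundant genes were named for the fibroblast and endothelial, macrophage, NK or gamma delta T and CD4 T cell lists. For the remaining marker lists they were not all named, and other marker genes named fall outside that rule. Of the marker genes 2 were found under another symbol. Alternatives were other scalings and filters, DESeq2 1.42.0, voom in limma 3.58.1, the replicate block and left-out libraries. GENCODE M21 (GRCm38) gave transcript lengths and shared windows. Some pathway genes that enter the counts are not reported here by name.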

Additional observations from a re-analysis of the deposited data

How the results depend on the processing

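The log2 fold changes of the 10 genes were positive under 17 of 18 alternatives for all 10, the exception being the scaling to receptor constant regions, where Cd247 (-0.016) and Lat (-0.062) reversed and 0 of the 10 passed. Where libraries were left out, the lack of overlap between the groups made the positive signs nearly certain beforehand. The number that passed was 8 with DESeq2 (2.41% of its genes called higher), 10 with the replicate block, and 0 to 6 when single libraries were left out. Leaving out both libraries of a replicate number, chosen after the data were seen, gave 0 for replicate 1 (7 at an unadjusted p under 0.05), 4 for replicate 2 and 0 for replicate 3 (7 at an unadjusted p under 0.05). The shares of all genes at that unadjusted cut were not computed for these fits. Over all genes 1103 passed, against 1891 with no filter, 1804 with DESeq2, 2347 with the replicate block, 262 to 1213 without single libraries, and 452, 491 and 627 without both libraries of replicates 1, 2 and 3. Of the 32 other pathway genes 2 passed with no filter, 3 with DESeq2, 10 with the replicate block, and 0 to 1 without single libraries. Against the other 9 genes 1 passed (Lat, lower) with the replicate block, where most genes tested passed, and 0 to 1 without single libraries. The cause of these changes was not tested. The log2 ratio of the 10 genes' share of counts was 0.72, and 0.64 to 0.83 over its alternatives. With 3 libraries a group no exact permutation test can go below 0.1, and the common biological coefficient of variation was 0.311.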
